A study of Mus musculus with 68 samples.

Results

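The kidney response to Egf 6 h after injection was measured as the RNA of 4 kidneys from mice given Egf and 3 kidneys from mice given the vehicle, 7 of the 68 libraries of the series. These libraries were chosen by their labels alone. All mice were wild-type C57BL/6J females aged 10 weeks. Egf was injected into the retro-orbital sinus under isoflurane at a dose of 1 mg/kg, dissolved in phosphate-buffered saline. Vehicle mice were given 50 to 60 µL of that saline by the same route, and organs were removed at 2 h or 6 h within 4 min. A further 3 kidneys came from untreated mice, which had no injection, so injection, anaesthesia and time of day cannot be told apart in any comparison with them. The whole organ was sequenced, so fewer cells of a type and less RNA per cell cannot be told apart.

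Egf, epidermal growth factor, binds the receptor tyrosine kinase Egfr, which pairs with itself or with Erbb2 and signals through the Ras and MAP kinase cascade and through phosphoinositide 3-kinase. The first genes to respond are immediate early transcription factors, followed by inhibitors such as Errfi1, the Sprouty proteins and the dual specificity phosphatases, which shut the signal off. The kidney is itself a major source of Egf, made as a membrane precursor in the thick ascending limb and the distal convoluted tubule, where Egf is known to favour magnesium uptake through the channel Trpm6.

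The 7 libraries held 15785673 to 18356001 counted reads each, and 25321 genes had at least 1 read in them. Of 56748 genes in the table, 15654 passed the filter on low counts and were tested in a fit of all 17 kidney libraries. Levels are CPM, the reads of a gene relative to the TMM-scaled library total, with the standard deviation (SD). Changes are log2 of Egf over vehicle with the standard error (SE). Adjusted p values are from edgeR's quasi-likelihood test with Benjamini-Hochberg adjustment unless another tool is named.

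No gene differed between the Egf and the vehicle kidneys at 6 h at an adjusted p under 0.05 in edgeR's quasi-likelihood test, that is 0 of 15654 genes (0%). At an unadjusted p under 0.05, 590 genes had a higher level in the Egf kidneys (3.77% of those tested) and 396 a lower one (2.53%). In 834 genes (5.33%) every Egf library lay above every vehicle library, and in 695 (4.44%) every Egf library lay below. The smallest adjusted p was 0.241. DESeq2 called 37 genes on the same counts, 25 higher and 12 lower, and limma voom with library quality weights called 798. The count depends on the tool, and none of the genes described next passed the test used throughout. They are the 24 genes with the smallest p among those that averaged 1 CPM or more in either group and whose groups did not overlap, 20 with a higher and 4 with a lower level after Egf.

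**Figure D1:**
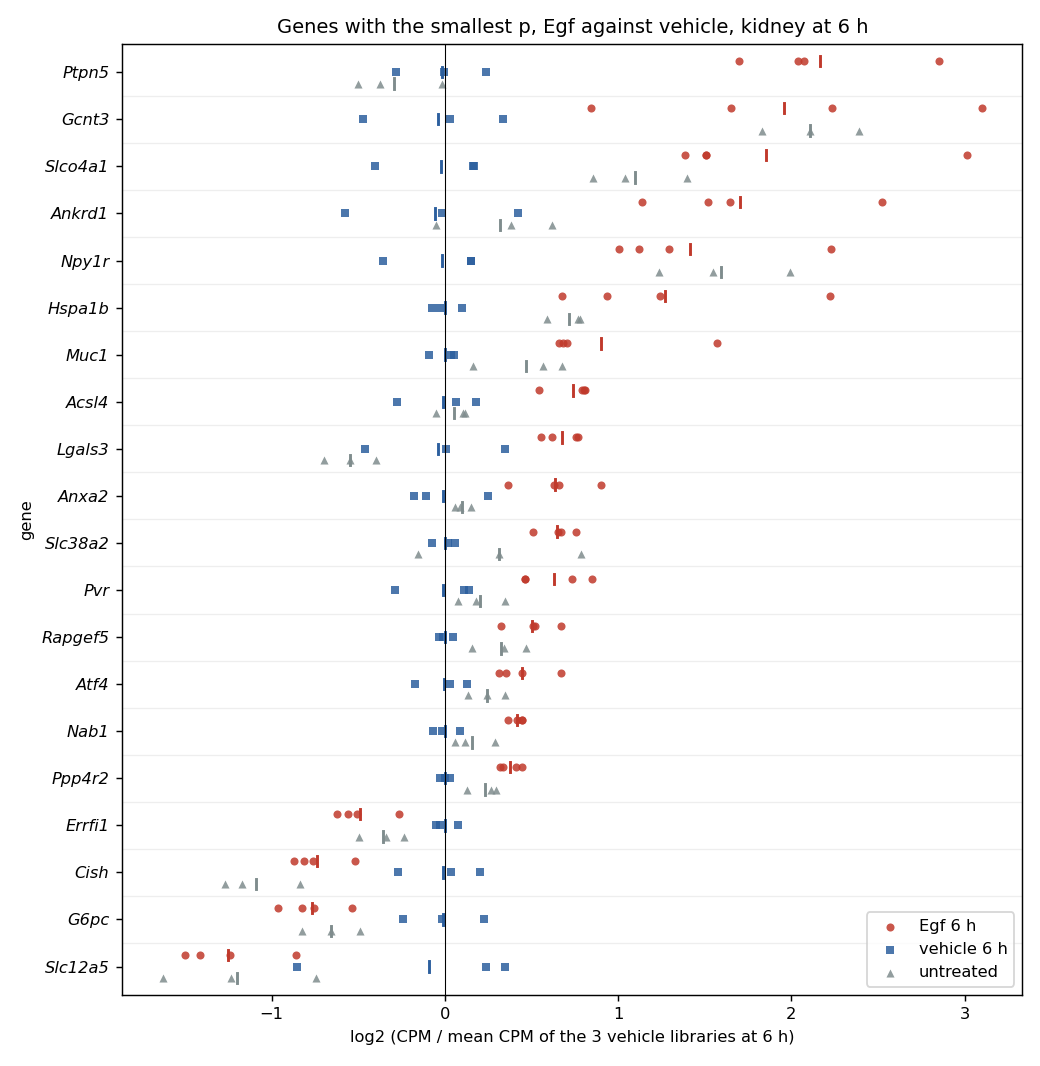
The reported 20 of the 24 genes with the smallest p, each library plotted as log2 of its CPM over the mean CPM of the 3 vehicle libraries at 6 h; circles are the 4 Egf libraries, squares the 3 vehicle libraries and triangles the 3 untreated libraries, and short bars mark the group means of the log values. By the choice of genes Egf and vehicle do not overlap, and untreated libraries lie with the Egf libraries for G6pc and Cish and with the vehicle libraries for Ptpn5.

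The largest change among them was that of Ptpn5 (ENSMUSG00000030854, chromosome 7, 46727543 to 46783432 on mm39), which encodes a tyrosine phosphatase that acts on MAP kinases. Its level was 11.4, 11.6, 8.95 and 19.9 CPM in Egf kidneys and 2.27, 2.76 and 3.26 CPM in vehicle kidneys, beside 2.73, 1.95 and 2.13 CPM in untreated kidneys. All 4 Egf libraries stood above the other 6, and the log2 change was 2.23 ± 0.41 (adjusted p = 0.241). Anxa2, a calcium-dependent membrane-binding protein, averaged 109 ± 16.5 CPM in Egf kidneys (SD, n = 4) and 69.5 ± 11.5 CPM in vehicle kidneys (n = 3). Lgals3, the lectin galectin-3, averaged 92.3 ± 6.56 CPM in Egf kidneys and 57.7 ± 15.8 CPM in vehicle kidneys.

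In these genes the untreated kidneys lay nearer to the vehicle kidneys than to the Egf kidneys, and some of them differed between Egf and untreated kidneys past the threshold. The Egf kidneys at 6 h differed from the untreated kidneys in 50 genes (0.319% of those tested), 35 higher and 15 lower. The log2 change over untreated kidneys was 2.51 for Ptpn5 (adjusted p = 0.0209) and 1.22 for Lgals3 (adjusted p = 0.00541). Tnfrsf12a, the receptor of the cytokine Tweak, rose by 1.37 over untreated kidneys (adjusted p = 0.0412) and Samd5, a SAM domain protein, by 1.51 (adjusted p = 0.0305). For the same genes the vehicle kidneys gave log2 changes over untreated kidneys of 0.28 for Ptpn5, 0.54 for Lgals3, 0.37 for Tnfrsf12a and 0.44 for Samd5, with adjusted p values of 0.358 to 0.914.

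In another part of the 24 genes it was the vehicle kidneys that stood apart. G6pc (chromosome 11, 101258387 to 101268729), the catalytic subunit of glucose-6-phosphatase that releases glucose at the end of gluconeogenesis, had 408, 333, 350.4 and 303 CPM in Egf kidneys and 690.3, 583 and 499 CPM in vehicle kidneys, beside 334, 375 and 420.4 CPM in untreated kidneys. Every Egf library lay below every vehicle library, and the Egf and untreated libraries overlapped, and the log2 change of Egf over vehicle was -0.76 ± 0.15 (adjusted p = 0.241). Cish, an inhibitor of cytokine signalling through Stat5, averaged 42.0 ± 4.72 CPM in Egf kidneys, 70.0 ± 11.3 CPM in vehicle kidneys and 33.1 ± 5.41 CPM in untreated kidneys. Its vehicle level was above the untreated one with a log2 change of 1.08 (adjusted p = 0.0108), while the Egf level gave 0.34 over untreated (adjusted p = 0.713). Npy1r, a receptor of neuropeptide Y, averaged 7.06 ± 3.13 CPM in Egf kidneys, 2.49 ± 0.476 CPM in vehicle kidneys and 7.68 ± 2.05 CPM in untreated kidneys. Vehicle and untreated kidneys differed past the threshold in 33 genes (0.211% of those tested), 23 higher and 10 lower in vehicle. All comparisons with untreated kidneys share libraries with the comparison of Egf and vehicle, so these values are given side by side only.

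Other genes among the 24 had smaller changes or lower levels. Acsl4, which joins arachidonic acid to coenzyme A, averaged 99.6 ± 8.48 CPM in Egf kidneys and 59.5 ± 9.38 CPM in vehicle kidneys, and Slc38a2, a transporter of neutral amino acids, 101 ± 7.16 CPM in Egf kidneys and 64.4 ± 2.97 CPM in vehicle kidneys. Rapgef5, an exchange factor of Rap, gave a log2 change of 0.51, the adhesion receptor Pvr 0.64 and the phosphatase subunit Ppp4r2 0.38. Ankrd1, an ankyrin repeat protein, gave 1.79 and Gcnt3, which builds mucin sugar chains, 2.16, both at under 5 CPM in every library. Slc12a5, a potassium chloride cotransporter, was lower with -1.23, at 1.74 CPM in Egf kidneys and 4.10 CPM in vehicle kidneys.

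One clock gene, Cry1, differed from untreated kidneys past the threshold in both injected groups. Cry1, a repressor of the circadian clock, had a log2 change over untreated of 1.95 in Egf kidneys (adjusted p = 0.00731) and of 1.82 in vehicle kidneys (adjusted p = 0.0129). Per2, another clock repressor, gave 1.65 in Egf kidneys (adjusted p = 0.0305) and 1.56 in vehicle kidneys (adjusted p = 0.0512). Nr1d1, the nuclear receptor Rev-erb alpha, gave -1.05 in Egf kidneys (adjusted p = 0.0477) and -0.92 in vehicle kidneys (adjusted p = 0.184). Egf over vehicle gave log2 changes of 0.13 ± 0.26 for Cry1, 0.09 ± 0.28 for Per2 and -0.13 ± 0.22 for Nr1d1. These genes were picked for their difference from untreated kidneys and do not stand for all clock genes. Of 20 clock genes tested, 4 had every Egf library below every vehicle library, beside 4.44% of all genes. In 1 every Egf library lay above, beside 5.33%. Ciart, one of the lower ones, had 2.81, 2.44, 3.16 and 2.46 CPM in Egf kidneys and 4.43, 5.08 and 4.92 CPM in vehicle kidneys.

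One Egf kidney, replicate 4, stood apart from the other 3 in several of these genes. Slco4a1 (chromosome 2, 180098038 to 180116660), an organic anion transporter that can carry thyroid hormone, had 26.8, 29.1, 29.1 and 82.9 CPM in Egf kidneys, 7.75, 11.5 and 11.5 CPM in vehicle kidneys and 21.1, 18.5 and 27.0 CPM in untreated kidneys. The first 3 Egf libraries lay close to the untreated ones and replicate 4 far above them. The log2 change was 2.03 ± 0.34 (adjusted p = 0.241), and without replicate 4 it was 1.46 and passed the test (adjusted p = 0.00747). Hspa1b, an inducible Hsp70 chaperone, had 60.4, 89.1, 72.2 and 176 CPM in Egf kidneys, 35.8, 40.4 and 36.9 CPM in vehicle kidneys and 64.9, 64.3 and 56.7 CPM in untreated kidneys. Its log2 change was 1.40 ± 0.26, and 0.97 without replicate 4 (adjusted p = 0.0408). Hspa1a and Hspa1b are nearly identical genes, so the split of reads between them is uncertain. Muc1, a membrane mucin of the distal nephron, had 65.7 CPM in replicate 4, with the other Egf kidneys at 34.9 to 36.2 CPM.

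The same library had the highest summed level of inner medulla and thin limb markers. The 10 inner medulla markers, all detected, summed to 688, 1020.5, 927 and 1735 CPM in Egf kidneys, 554, 825 and 557 CPM in vehicle kidneys and 796 to 910.5 CPM in untreated kidneys. The 8 thin limb markers summed to 605, 878, 788 and 1516 CPM in Egf kidneys and 417, 692 and 419 CPM in vehicle kidneys. Akr1b3 and Cryab are on both lists, and S100a6 is on the inner medulla list. In Egf replicate 4 Akr1b3 had 574 CPM and Cryab 481 CPM, which is much of both sums in that library. A covariate from the inner medulla markers thus adjusts these genes in part for their own levels. With the log ratio of inner medulla to proximal tubule markers as a covariate, the log2 change was 1.38 for Slco4a1, 1.95 for Ptpn5, 0.82 for Hspa1b and -0.66 for G6pc, with adjusted p values of 0.350 or above. The proximal tubule markers Slc34a1, Lrp2 and others of the first segments summed to 23969 to 28970 CPM in Egf kidneys and 23806 to 27301 CPM in vehicle kidneys, so that the organ matched its label in all 7 libraries.

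**Figure D2:**
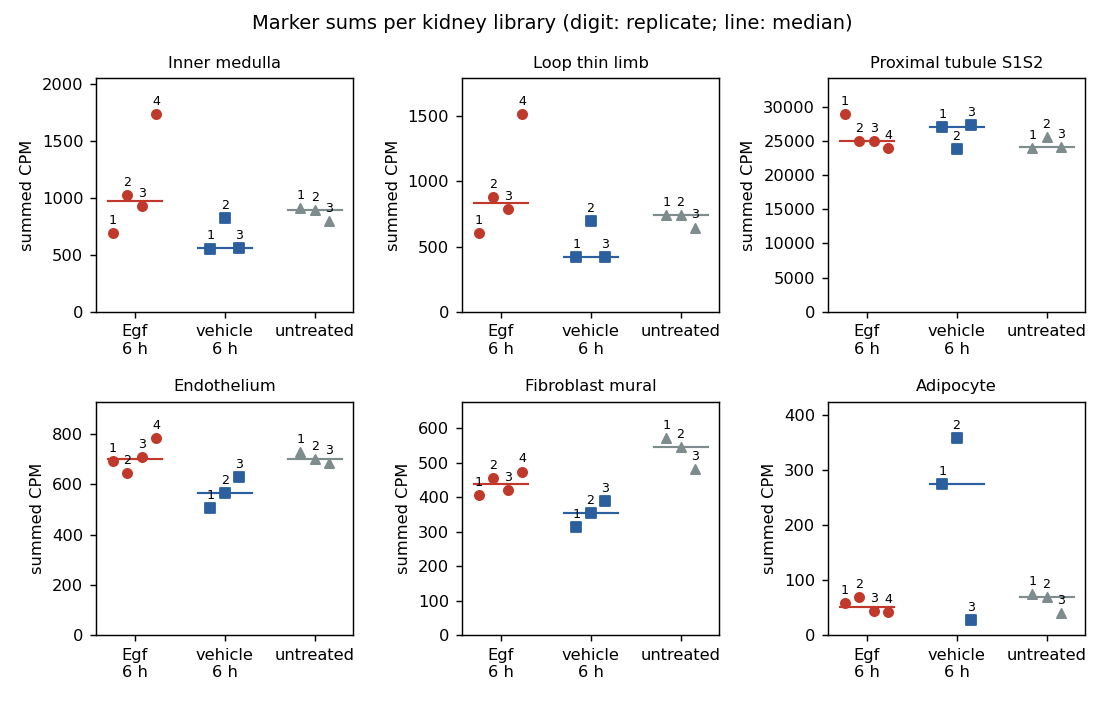
Summed CPM of 6 marker lists in each kidney library, with Egf at 6 h, vehicle at 6 h and untreated side by side; digits are replicate numbers and lines are group medians. Egf replicate 4 is the highest for inner medulla and thin limb, and vehicle replicates 1 and 2 are the highest for adipocytes.

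Fat markers differed within the vehicle group. The 9 adipocyte markers summed to 59.7, 70.5, 43.7 and 41.9 CPM in Egf kidneys and to 276, 359 and 27.8 CPM in vehicle kidneys, and 7 of the 9 had an unadjusted p under 0.05 with a lower level in Egf kidneys. Cidec, a lipid droplet protein and itself on that list, and Slc36a2, an amino acid transporter, had their high values in the same vehicle replicates 1 and 2. Slc36a2 had 0.661, 0.454, 0.643 and 0.448 CPM in Egf kidneys and 4.76, 4.07 and 0.166 CPM in vehicle kidneys. With the adipocyte sum as a covariate both changed sign, to 0.44 for Cidec and 0.52 for Slc36a2. Endothelial markers summed to 643 to 784 CPM in Egf kidneys, 504 to 629 CPM in vehicle kidneys and 684 to 729 CPM in untreated kidneys. Fibroblast and mural markers summed to 405 to 475 CPM in Egf kidneys, 314 to 388 CPM in vehicle kidneys and 482 to 573 CPM in untreated kidneys. In both lists, which are among 24 marker lists summed, every vehicle kidney lay below every Egf and every untreated kidney. Adrenal cortex markers summed to 4.72 to 5.32 CPM in Egf kidneys and 4.58 to 6.70 CPM in vehicle kidneys. Cardiomyocyte markers reached 298 CPM in Egf replicate 1 and 76.4 CPM in vehicle replicate 3. The part of vessel, fibroblast and heart markers in the results was not tested.

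The Egf system itself showed little difference in RNA at 6 h. None of the 6 ligands and 4 receptors tested had an unadjusted p under 0.05. Egf averaged 1832 ± 151 CPM in Egf kidneys and 1660.0 ± 314 CPM in vehicle kidneys, a log2 change of 0.14 with a 95% interval of -0.26 to 0.54. Egfr averaged 47.7 ± 7.84 CPM in Egf kidneys and 40.2 ± 4.41 CPM in vehicle kidneys, a log2 change of 0.25 with an interval of -0.29 to 0.78. The intervals were -0.31 to 0.54 for Erbb2, -0.78 to 0.64 for Erbb3 and -0.26 to 0.63 for Erbb4, so that a change of 2-fold or more in either direction lay outside the interval for each receptor. Among ligands the largest difference was that of Nrg1, with 7.80 ± 0.772 CPM in Egf kidneys and 5.85 ± 2.81 CPM in vehicle kidneys, while Tgfa, Btc, Hbegf and Nrg4 gave log2 changes of 0.16, 0.15, -0.06 and -0.09. Areg, Ereg, Epgn, Nrg2 and Nrg3 did not pass the filter.

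Of 27 immediate early genes tested, 2 had an unadjusted p under 0.05, both higher after Egf. This and the list counts that follow stand beside 3.77% higher and 2.53% lower over all genes tested. These shares are those of the main fit and can differ in other fits. List counts under alternatives are thus no result about the members unless the share of that fit is given. The 2 immediate early genes were Nab1, a corepressor of the Egr factors, with a log2 change of 0.42 ± 0.10, and Klf2, a zinc finger factor of endothelium, with 0.33. Fos gave 1.61 ± 0.83 at levels of 0.917 ± 0.550 CPM in Egf kidneys and 0.306 ± 0.395 CPM in vehicle kidneys, and Egr1 gave 0.33 ± 0.49. The list had a median log2 change of 0.13, beside 0.02 over all genes tested, and -0.06 with the inner medulla covariate. Of 28 feedback genes of the MAP kinase and Egfr pathway, Errfi1, which inhibits the Egfr kinase, was lower with -0.48 ± 0.11, and Dusp8, a phosphatase of MAP kinases, was higher with 0.64. The other 26 had an unadjusted p of 0.05 or above, and the list median was 0.07.

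Among 17 magnesium handling genes only Kcna1, a potassium channel of the distal convoluted tubule, had an unadjusted p under 0.05: its level was 0.441, 0.114, 0.214 and 0.224 CPM in Egf kidneys and 1.05, 0.815 and 0.719 CPM in vehicle kidneys. Trpm6 gave 0.16 with an interval of -0.51 to 0.83, and the list median was 0.05. Of 19 genes of calcium, phosphate and vitamin D handling, 3 had an unadjusted p under 0.05, and all 3 were lower after Egf. They were Pth1r, the parathyroid hormone receptor, with a log2 change of -0.41, Cyp27b1, which makes active vitamin D, with -0.79, and Slc34a3, a phosphate transporter, with -0.32. Pth1r had 734 ± 56.0 CPM in Egf kidneys, 974 ± 105 CPM in vehicle kidneys and 801 ± 51.9 CPM in untreated kidneys. With the inner medulla covariate 3 members were higher and 2 lower. Without vehicle replicate 1 these counts were 1 higher and 1 lower, and without vehicle replicate 2 they were 0 higher and 1 lower. The shares over all genes in these fits are not set beside them. Neither these counts nor a common direction of the list is thus a result about the members. Of 24 sodium and potassium transport genes of the distal nephron, Stk39, a kinase that activates sodium chloride cotransport, gave 0.24, and Hsd11b2, which inactivates glucocorticoid in target cells of aldosterone, gave -0.33.

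The cytoskeleton and keratin genes had the most members with a small p. All 28 tested had a higher level after Egf (27 with RLE size factors), with a median log2 change of 0.26, and 12 had an unadjusted p under 0.05, all higher, beside 3.77% of all genes. Over all genes 53.8% were higher. The gene lists were chosen with earlier results of these data known, so the share over all genes gives no independent test of them. Krt18 and Tubb6, for example, passed in liver at 6 h. Krt18, a keratin of simple epithelia, averaged 36.1 ± 7.70 CPM in Egf kidneys and 24.4 ± 6.00 CPM in vehicle kidneys, a log2 change of 0.56 ± 0.19. The calcium-binding protein S100a6 gave 0.74, the annexins Anxa1 and Anxa2 gave 0.54 and 0.65, the tubulins Tubb2a, Tubb2b and Tubb6 gave 0.53, 0.51 and 0.54, and the actin crosslinker Flna gave 0.37. Tubb2a and Tubb2b are closely similar, and their reads may be shared. Without Egf replicate 4 the count was 7 of 28 and the median 0.22, and without vehicle replicate 1 or 3 it was 7 and 8. The shares over all genes in those fits are not given here. With the inner medulla covariate the count was 5 of 28, beside 7.11% of all genes in that fit, with 22 higher and a median of 0.13. Of 20 kidney injury genes, 19 were higher with a median of 0.27, but only Anxa2 and Cp, ceruloplasmin, had an unadjusted p under 0.05. Havcr1, the injury marker Kim-1, gave 0.11 and Lcn2, a marker of tubular damage, also gave 0.11.

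**Figure D3:**
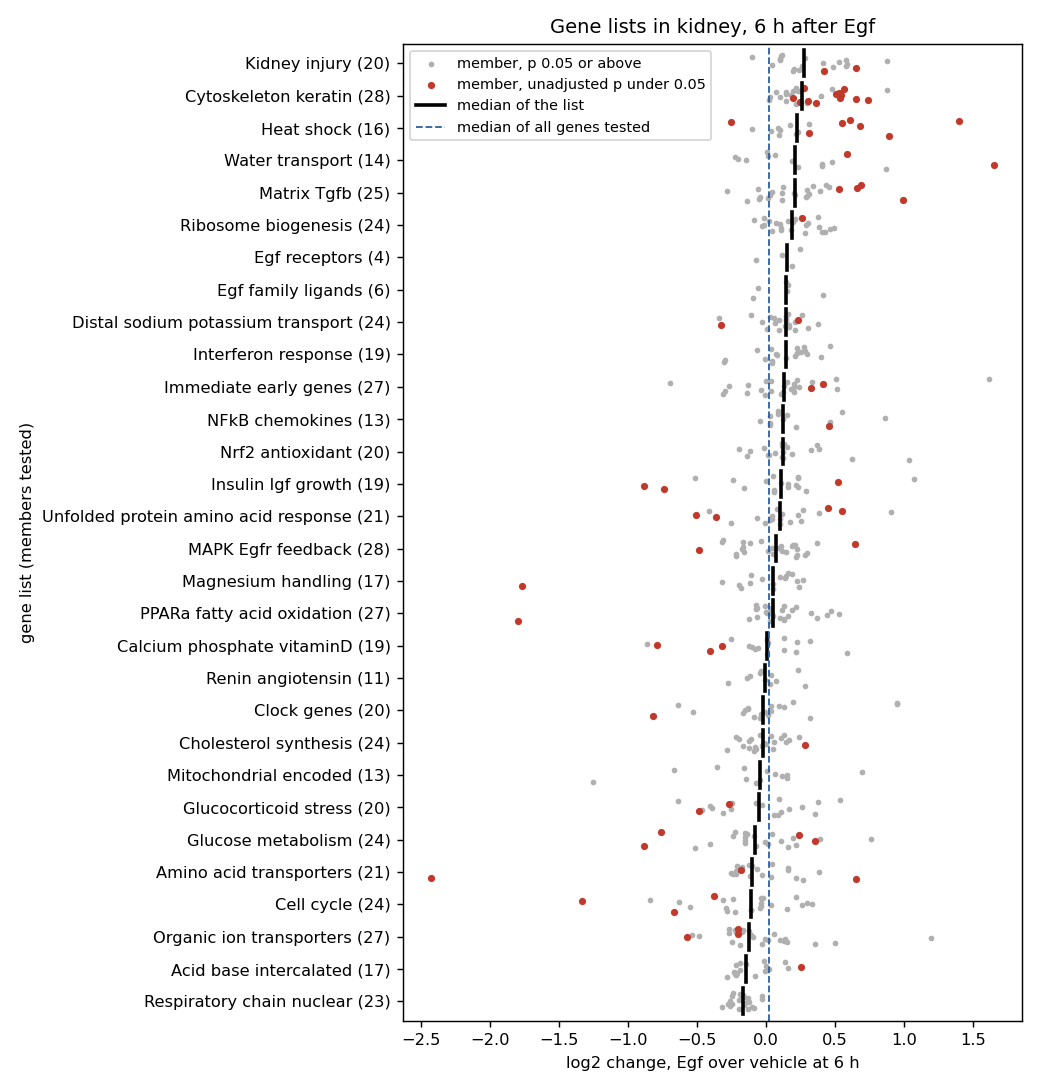
Log2 change of Egf over vehicle at 6 h for every tested member of 30 gene lists, ordered by list median; red points have an unadjusted p under 0.05, black bars are list medians and the dashed line is the median of all genes tested. The cytoskeleton, kidney injury and heat shock lists lie highest and the nuclear respiratory chain genes lowest, and no member passed the adjusted threshold.

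Of 16 heat shock genes, 6 had an unadjusted p under 0.05 and a higher level after Egf and 1 had a lower level, beside 3.77% and 2.53% of all genes. The higher ones were Hspa1b, Hspa1a, the small chaperones Cryab and Hspb1, the Hsp70 partner Hsph1 and the co-chaperone Bag3, and the lower one was Hspa8, the constitutive Hsc70, with -0.25. Cryab had 180, 249, 245 and 481 CPM in Egf kidneys and 151, 170 and 146 CPM in vehicle kidneys, with replicate 4 again highest. The median was 0.23, and without Egf replicate 4 or vehicle replicate 2 the counts were 4 higher and 0 lower. With the inner medulla covariate they were 3 higher and 0 lower, with a median of 0.29, and with the adipocyte covariate 3 higher and 1 lower. The shares over all genes in these fits are not set beside the counts, which are thus no result about the members. Of 21 genes that respond to unfolded proteins or to amino acid shortage, the transcription factors Atf4 and Ddit3 were higher with 0.45 and 0.55, and Sesn2, an inhibitor of mTORC1, and Herpud1, which takes part in the degradation of endoplasmic reticulum proteins, were lower with -0.51 and -0.36. Sesn2 had 43.9 ± 3.93 CPM in Egf kidneys, 62.5 ± 0.181 CPM in vehicle kidneys and 50.8 ± 2.13 CPM in untreated kidneys.

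Of 25 matrix and Tgf-beta genes, 4 had an unadjusted p under 0.05, all higher: Tnfrsf12a with 0.99 ± 0.27, the matrix protein Thbs1 with 0.69, the urokinase receptor Plaur with 0.66 and the plasminogen activator Plat with 0.53. The median of the list was 0.21. Of 14 water transport and osmolyte genes, Akr1b3, aldose reductase, which makes the osmolyte sorbitol, gave 1.65 ± 0.45 and Aqp2, the water channel of the collecting duct, gave 0.59 ± 0.27. With the inner medulla covariate they gave 0.60 and 0.02. These 2 members with a small p became 6 without vehicle replicate 2, a fit whose share over all genes is not given here. The 23 nuclear respiratory chain genes tested were all lower after Egf, while 53.8% of all genes tested were higher. Their log2 changes lay between -0.32 and -0.03 with a median of -0.16, yet none had an unadjusted p under 0.05. In 1 of the 23 every Egf library lay below every vehicle library, beside 4.44% of all genes. The share of reads on mitochondrially encoded genes was 3.61% to 5.25% in Egf kidneys and 4.54% to 4.93% in vehicle kidneys. In glucose metabolism, Irs2, a substrate of the insulin receptor, was lower beside G6pc with -0.88, and Pfkp, a phosphofructokinase, was higher with 0.36. Of 24 cell cycle genes, none was higher and 3 were lower at an unadjusted p under 0.05, E2f1 with -0.67, Ccnd1 with -0.38 and Ccnb2 with -1.33. Vehicle replicate 2 had the highest level of each, 7.46 CPM of E2f1, 288 CPM of Ccnd1 and 3.57 CPM of Ccnb2. Without that library none of the 24 had such a p, 14 were higher and 10 lower, and the median was 0.02 in place of -0.11. With the adipocyte covariate none had such a p either. The shares over all genes in these fits are not given here, so the loss of small p values is no result about the cell cycle genes.

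The other lists held few genes with an unadjusted p under 0.05. Of 17 acid and base genes 1 was higher, the anion exchanger Slc4a9 with 0.26, and the list median was -0.15. Of 27 organic ion transporters 3 were lower, Slc22a2, Slc22a18 and Slc22a30 with -0.20, -0.20 and -0.57, and the median was -0.12. Without Egf replicate 2 none of them had such a p, and the share over all genes in that fit is not given here. Of 21 amino acid transporters 1 was higher and 2 lower (median -0.10), and of 24 genes of glucose metabolism 2 were higher and 2 lower (median -0.08). Of 20 clock genes Ciart, a repressor of the clock, was lower with -0.82 (median -0.02), and of 20 glucocorticoid and stress genes Errfi1 and the factor Klf15 were lower (median -0.05). Among 19 genes of insulin and Igf signalling Igfbp5, a binding protein of Igf, was higher with 0.52, and Irs2 and Cish were lower (median 0.11). Single genes were higher among 24 of cholesterol synthesis, 24 of ribosome biogenesis and 13 of NF-kB and chemokines, which were Sc5d with 0.28, Nop58 with 0.26 and Csf1 with 0.46, and the medians were -0.02, 0.19 and 0.13. Of 27 genes of fatty acid oxidation only Cidec was lower (median 0.05). No gene had such a p among 20 antioxidant genes (median 0.12), 19 interferon response genes (0.15), 13 mitochondrially encoded genes (-0.04) and 11 renin and angiotensin genes (0.00).

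The Egf effect at 6 h was then set against that at 2 h, where other mice were compared. The difference between the effects passed the threshold in 3 genes (0.0192% of those tested), all with a lower effect at 6 h. Tmem252, a transmembrane protein (chromosome 19, 24651372 to 24659597 on mm39), had 308, 227, 259.9 and 332 CPM in Egf kidneys and 85.1, 69.1 and 111 CPM in vehicle kidneys at 2 h. At 6 h it had 59.6, 55.8, 50.9 and 52.0 CPM in Egf kidneys and 97.3, 75.0 and 62.3 CPM in vehicle kidneys, so that all 4 Egf libraries lay above the vehicle libraries at 2 h and below them at 6 h. The log2 changes were 1.67 ± 0.18 at 2 h and -0.52 ± 0.17 at 6 h, a difference of -2.19 ± 0.24 (adjusted p = 0.00186). Nab2, a corepressor of Egr factors, averaged 37.2 CPM in Egf kidneys and 13.2 CPM in vehicle kidneys at 2 h, and 12.4 ± 1.02 CPM in Egf kidneys and 10.7 ± 1.09 CPM in vehicle kidneys at 6 h. The difference of the effects was -1.29 ± 0.16 (adjusted p = 0.00461). Errfi1 had 581, 667, 556 and 727 CPM in Egf kidneys and 418, 351 and 401 CPM in vehicle kidneys at 2 h, and 399, 325, 337 and 311 CPM in Egf kidneys and 462, 470.4 and 506 CPM in vehicle kidneys at 6 h. Its order of groups thus also turned, with a difference of -1.18 ± 0.16 (adjusted p = 0.00831). Untreated kidneys had 339, 408 and 379 CPM of Errfi1, overlapping the Egf kidneys at 6 h and below every vehicle kidney at 6 h. Of Tmem252 the untreated kidneys had 61.9, 69.8 and 77.3 CPM, above every Egf kidney at 6 h and overlapping the vehicle kidneys at 6 h.

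Adrenal cortex markers, from the gland beside the kidney, summed to 26.7, 4.45, 70.2 and 27.9 CPM in the Egf kidneys at 2 h and 3.53 to 4.13 CPM in the vehicle kidneys at 2 h. With that sum as a covariate the 3 differences were -1.96, -1.20 and -1.33 for Tmem252, Nab2 and Errfi1 and no longer passed (adjusted p = 0.0582, 0.0908 and 0.0582), and with the adipocyte sum they were -1.99, -1.15 and -1.20 (adjusted p = 0.0696 each).

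At 2 h, 40 genes passed (0.256% of those tested), 34 higher and 6 lower in Egf kidneys. One of them, Hsd3b1, is an adrenal marker. Of the 34, 23 were higher and 11 lower at 6 h, beside 53.8% higher over all genes tested. Their median log2 change was 0.12 at 6 h and 0.83 at 2 h. At an unadjusted p under 0.05, 6 were higher and 2 lower at 6 h, beside 3.77% and 2.53% of all genes. The 6 were Nab1, Tnfrsf12a, the tubulin Tubb6, Chka, which starts phosphatidylcholine synthesis, Vav3, an exchange factor of small GTPases, and the nuclear importin Kpna4. The 2 lower ones were Tmem252 and Errfi1. Tnfrsf12a had 93.2, 88.1, 147 and 150.4 CPM in Egf kidneys and 18.4, 37.1 and 32.0 CPM in vehicle kidneys at 2 h, and 26.1, 34.4, 26.9 and 39.1 CPM in Egf kidneys and 19.8, 17.2 and 10.7 CPM in vehicle kidneys at 6 h. The groups did not overlap at either time. Of the 6 genes lower at 2 h, 4 were higher and 2 lower at 6 h. The size of the effect at 6 h was not shown to differ from that at 2 h for any of these genes other than Tmem252, Nab2 and Errfi1.

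**Figure D4:**
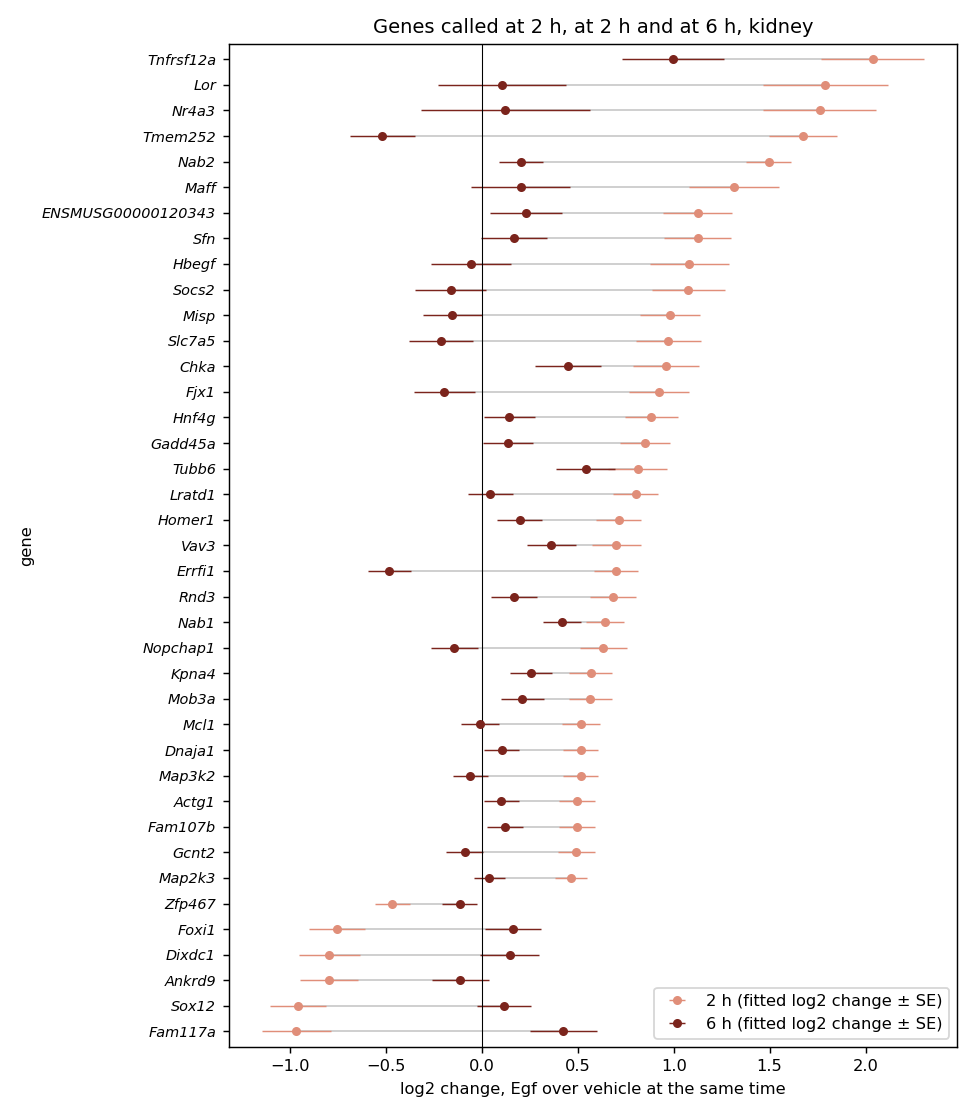
Log2 change of Egf over vehicle at 2 h (light) and at 6 h (dark) for the genes that passed at 2 h, with bars of 1 SE; Hsd3b1, whose 2 h change was far larger, is left out. Most points at 6 h lie near 0, Tmem252 and Errfi1 lie on the other side of it, and Tnfrsf12a is at 0.99 at 6 h.

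The promoters are shown for the 3 genes whose effect differed between the times and for Nab1 and Tnfrsf12a, which had the smallest p of the genes higher at both times. Each line gives the 150 bases before the RefSeq start on GRCm38.p6, an older build than that of the counts, read along the gene's strand. Capitals mark matches on either strand to the Egr motif GCGNGGGCG, the AP-1 motif TGANTCA, the CRE motif TGACGTCA or the CArG box. Errfi1 has 2 RefSeq starts, and the one that matches the first bases of its GENCODE transcript was used. The windows are chr19:24673858-24674007 (+) for Tmem252, chr10:127666704-127666853 (-) for Nab2, chr4:150854920-150855069 (+) for Errfi1, chr1:52500449-52500598 (-) for Nab1 and chr17:23677450-23677599 (-) for Tnfrsf12a.
Tmem252: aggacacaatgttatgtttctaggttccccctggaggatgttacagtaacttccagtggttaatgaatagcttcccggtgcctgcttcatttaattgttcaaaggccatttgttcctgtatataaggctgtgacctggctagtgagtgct
Nab2: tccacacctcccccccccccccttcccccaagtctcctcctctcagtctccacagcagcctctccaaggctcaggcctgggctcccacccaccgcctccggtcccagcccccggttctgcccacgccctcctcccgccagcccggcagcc
Errfi1: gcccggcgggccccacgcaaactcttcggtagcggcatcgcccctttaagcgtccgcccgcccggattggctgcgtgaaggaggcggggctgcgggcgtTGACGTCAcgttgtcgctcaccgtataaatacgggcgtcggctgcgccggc
Nab1: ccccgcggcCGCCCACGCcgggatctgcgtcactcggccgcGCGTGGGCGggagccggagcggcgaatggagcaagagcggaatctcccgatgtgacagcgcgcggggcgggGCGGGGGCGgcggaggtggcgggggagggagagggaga
Tnfrsf12a: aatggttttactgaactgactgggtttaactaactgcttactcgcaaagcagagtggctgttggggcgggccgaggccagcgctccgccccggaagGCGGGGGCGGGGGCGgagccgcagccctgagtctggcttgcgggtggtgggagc
The windows of Nab1 and Tnfrsf12a held 3 and 2 Egr matches, those of Tnfrsf12a overlapping, that of Errfi1 held 1 CRE, and those of Tmem252 and Nab2 held none of the 4 motifs. Of 32851 RefSeq promoter windows of the same length, 3.81% held an Egr match, 4.24% an AP-1 match, 1.36% a CRE and 0.916% a CArG box. These are matches of letters in 5 chosen windows and were not tested against the changes.

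In a fit of all 68 libraries the Egf effect at 6 h in kidney was compared with its mean in heart, lung and liver. It differed past the threshold in 1 gene of 18736 tested (0.00534%), Akr1b3 (chromosome 6, 34279369 to 34294413). Akr1b3 had 147, 247, 154 and 574 CPM in Egf kidneys, 88.7, 103 and 75.7 CPM in vehicle kidneys and 169.8, 219.8 and 189 CPM in untreated kidneys, so that vehicle was lowest and Egf replicate 4 highest. In that fit the log2 change of Egf over vehicle was 1.63 in kidney, -0.05 in heart, -0.07 in lung and -0.32 in liver, and the difference was 1.78 ± 0.31 (adjusted p = 0.00824). Without Egf replicate 4 the difference was 1.16 and did not pass (adjusted p = 0.420), nor did it pass without vehicle replicate 1 (0.103) or 3 (0.266). Akr1b3 is itself one of the inner medulla markers. The next genes by p were Lamb3, a laminin chain, with a difference of 1.52 (adjusted p = 0.128), Srxn1, which repairs oxidised peroxiredoxins, with -1.11 (adjusted p = 0.261), and Cryab with 0.84 (adjusted p = 0.422).

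**Figure D5:**
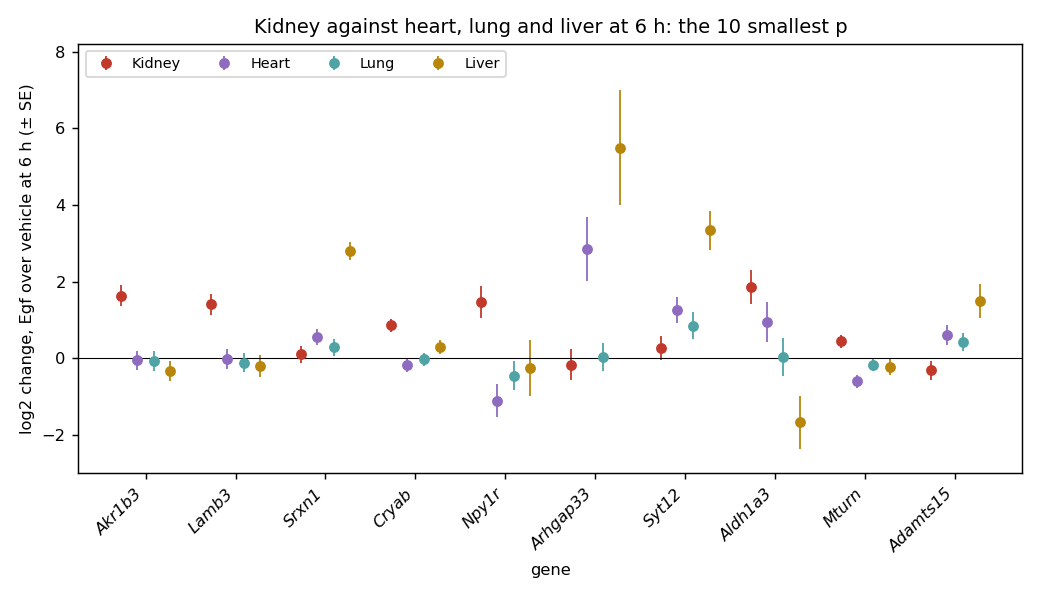
Log2 change of Egf over vehicle at 6 h in kidney, heart, lung and liver, with bars of 1 SE, for the 10 genes with the smallest p for the difference between kidney and the mean of the other organs. Akr1b3, the one gene past the threshold, has 1.63 in kidney and values near or below 0 in the other organs, and Srxn1 and Syt12 are highest in liver.

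In liver, tested in its own 17 libraries, 12 of 13592 genes (0.0883%) passed at 6 h, all higher in Egf livers, and 11 of them were tested in kidney. There 10 were higher and 1 lower, with a median log2 change of 0.22, beside 53.8% higher and a median of 0.02 over all genes. At an unadjusted p under 0.05, 4 of the 11 were higher and 1 lower, beside 3.77% and 2.53% of all genes. Srxn1 gave 0.13 in kidney with an interval of -0.13 to 0.38, and 2.81 in liver. The cytoskeletal genes of this group gave 0.22 for Krt8, 0.56 for Krt18, 0.54 for Tubb6 and 0.19 for Tagln2 in kidney, and 1.86, 1.76, 1.98 and 0.97 in liver. The difference between kidney and the mean of the other organs passed for none of these genes. That mean includes heart and lung, and kidney against liver alone was not tested. Mrap, an accessory protein of melanocortin receptors and one of the adrenal cortex markers, was the one lower gene with -1.41, at 0.671 CPM in Egf kidneys and 1.79 CPM in vehicle kidneys.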

How the data were processed

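The deposited table holds raw counts per gene that the authors made with HISAT2 2.0.5, featureCounts 1.5.0-p3 and the mm39 build, per the submitters' processing notes; the annotation release and the counting options are not given there. Libraries were polyA-selected and not directional, per the labels' protocols, so a gene and its antisense partner cannot be told apart. Low counts were removed by filterByExpr and library sizes scaled with TMM; the tests were glmQLFit and glmQLFTest of edgeR 4.0.16 (R 4.3.3). The fit used all 17 kidney libraries with 1 coefficient per group, and all 68 libraries for the organ difference. DESeq2 1.42.0 and limma 3.58.1 were alternatives. The common biological coefficient of variation was 19.2% and the median SE of a log2 change 0.188. Genes were named as the 24 smallest p without overlap of the groups and with at least 1 CPM, up to 4 members of each of 30 lists, the Egf ligands and receptors, and 10 genes for each difference. Of the 24, 20 are reported here. Members and lists were chosen with earlier results of these data known. Nothing in the labels says that equal replicate numbers share an animal or a batch, so no pairing was used. The adipocyte covariate was added after seeing the data. The method was tested on simulated data.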

Additional observations from a re-analysis of the deposited data

Results flagged for a closer look

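In the Egf kidneys at 6 h, 7 of 84 genes had 1 library far from the other 3, by Dixon's ratio of the gap to the range, and 6 of these were in replicate 4. Chance alone flags about 5% of such groups. Replicate 4 had 82.9 CPM of Slco4a1 (others 26.8 to 29.1 CPM) and 11.7 CPM of Npy1r (others up to 6.12 CPM). It also had 65.7 CPM of Muc1 (others 34.9 to 36.2 CPM), 52.2 CPM of the small chaperone Hspb1 (others 28.4 to 32.3 CPM) and 52.9 CPM of the retinoic acid enzyme Aldh1a3 (others 10.2 to 14.4 CPM). Acsl4, which activates arachidonic acid, had 86.9 CPM in replicate 3 and 103 to 104 CPM in the others.

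The Egf effect differed between the times, 6 h minus 2 h on the log2 scale, by -2.19 for Tmem252, -1.29 for Nab2 and -1.18 for Errfi1. It differed between kidney and the mean of the other organs by 1.78 for Akr1b3.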

How the results depend on the processing

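The count of 0 genes for Egf against vehicle at 6 h was also 0 with RLE size factors, without the filter on low counts, in a fit of the 7 libraries alone and with each of the 3 marker covariates. It was 37 with DESeq2, 798 with limma voom, 50 with untreated kidneys as the reference, and 0 to 4 when 1 library was left out. Without Egf replicate 1, 3 or 4 the counts were 4, 1 and 2. The 3 genes of the time difference became 5 without the filter, 0 with the adrenal cortex covariate and 0 with the adipocyte covariate, 51 with DESeq2, 247 with limma voom, and 3 to 10 when 1 library was left out, with 10 without Egf 2 h replicate 3. The 1 gene of the organ difference became 0 in the 28 libraries at 6 h alone, 20 with DESeq2, 171 with limma voom, and 0 to 3 when 1 library was left out. The cause was not tested.

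The replicate block gave 0 genes for Egf against vehicle, 2 for the time difference, where Errfi1 no longer passed (adjusted p = 0.0906), and 0 for the organ difference. Deviations of equally numbered Egf and vehicle kidneys at 6 h correlated with 0.036, 0.020 and -0.191, and those of different numbers with -0.246 to 0.235. With so few libraries these correlations cannot show whether equal numbers share a batch or another source of variation. Under the block the log2 change of Nrg4 was 0.065.

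Of the 24 genes with the smallest p, 22 kept their direction under all alternatives run. These genes were chosen for groups without overlap, so a fit without 1 library could hardly change their direction. Of 1428 values of 84 genes, 1304 kept direction and side of the threshold, 96 passed it newly and 28 changed sign. With the inner medulla covariate Btc gave -0.083 and Erbb3 0.21. With the adipocyte covariate Slc36a2 gave 0.52, Cidec 0.44, Hbegf 0.088, Nrg4 0.49 and Erbb2 -0.020, and limma voom gave 0.15 for Hbegf. Over untreated kidneys Cish gave 0.34, Npy1r -0.12, Cyp27b1 0.082, Irs2 0.049, Cidec 0.36, Ciart 1.05, Herpud1 0.27, Igfbp5 -0.31, Egf -0.11, Tgfa -0.19, Nrg4 0.31, Erbb4 -0.22 and Bmp4 0.0050. When 1 library was left out, the log2 change ranged from -0.40 to 0.24 for Nrg4, -0.014 to 0.45 for Btc, -0.17 to 0.070 for Erbb3 and -0.21 to 0.12 for Hbegf.

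The low number of mice limits the precision, and p values set each difference against a spread estimated from the libraries of the fit.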
